A study of Rattus norvegicus with 6 samples.

Results

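The genes described here encode the transforming growth factor beta (TGF-beta) ligands, their receptors, the signal carrier SMAD3, a TGF-beta-induced matrix protein and latent binding proteins. Of the last, LTBP1 can hold the ligands outside the cell. The set held 10 genes: Tgfb1, Tgfb2, Tgfb3, Tgfbr1, Tgfbr2, Tgfbr3, Smad3, Tgfbi, Ltbp1 and Ltbp2. A probe set, a group of short array probes read together, was used for a gene where the platform annotation gave it to that gene alone. This found 13 probe sets for 9 of the 10 genes, out of 14217 genes named on the array, and Tgfbr2 was not analysed here. The probe set with the highest mean over all 6 arrays stood for its gene, and the 4 others are given beside it.

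The RNA came from mammospheres and was read on Affymetrix 3' arrays. Mammospheres are floating colonies raised from dissociated mammary cells on a surface they cannot attach to. The hCG group (3 arrays, numbered 5, 6 and 7) came from female Sprague Dawley rats injected into the abdomen each day with 100 IU of recombinant human chorionic gonadotropin, the hormone of pregnancy that stimulates the ovary. The Control group (3 arrays, also numbered 5, 6 and 7) came from female Sprague Dawley rats given phosphate buffered saline in the same way. In both groups dosing started at an age of 55 days and lasted 21 days, mammary glands were removed 21 days after dosing ended, and cells enriched for epithelium were grown for 7 days with epidermal growth factor, basic fibroblast growth factor and heparin. The comparison asked how spheres from glands with a past hCG exposure differed from spheres of glands given saline alone.

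TGF-beta ligands are made as precursors whose propeptide stays wrapped around the mature dimer and keeps it silent. LTBP1 can bind this complex covalently and anchor it in the matrix, whereas LTBP2 is a matrix protein of the same family that is not known to bind the ligand complex in this way. Freed ligand brings together the receptors TGFBR2 and TGFBR1, with TGFBR3 (betaglycan) as a presenting receptor, and TGFBR1 then phosphorylates SMAD2 and SMAD3. In the mammary gland TGF-beta is known for restraining the growth of ducts and for inducing matrix proteins.

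Of the 9 measured genes, Ltbp2 was the only one that passed the test over all genes, and it was lower in hCG spheres by 2.15-fold. Tgfbi was 2.38-fold higher, Smad3 was 1.46-fold higher and Tgfb1 was 1.72-fold lower, each with no overlap between the groups and none past the threshold. Ltbp1 was 2.14-fold lower with overlapping groups. The receptors Tgfbr1 and Tgfbr3 had log2 changes of -0.03 and -0.04. All values are log2 expression, so 1 unit is a doubling, and changes are hCG minus Control. The test was the moderated one of limma, its p-values adjusted by the Benjamini-Hochberg method over 10424 genes, with a call at an adjusted p under 0.05. All 9 genes passed the filter on dim probe sets, and their median change was -0.03, against 0.03 over all genes tested.

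The members' count is read against the whole table. Of all genes tested, 1.01% were called higher and 0.815% lower in hCG spheres, and of the 9 members 0 were called higher and 1 lower. The arrays of the groups lay apart in 2 members with higher values (Tgfbi and Smad3) and in 2 with lower values (Tgfb1 and Ltbp2), while this held for 19.3% of all genes in the higher direction and 12.3% in the lower. At an unadjusted limma p under 0.05 there were 5 members, against 2510 of the 10424 genes. Gene calls rested on most arrays together: leaving out Control 5, Control 6, hCG 5 or hCG 7 left 0 genes called in the whole table, while 1950, 1931, 1649 and 1455 genes had an unadjusted limma p under 0.05.

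**Figure D1:**
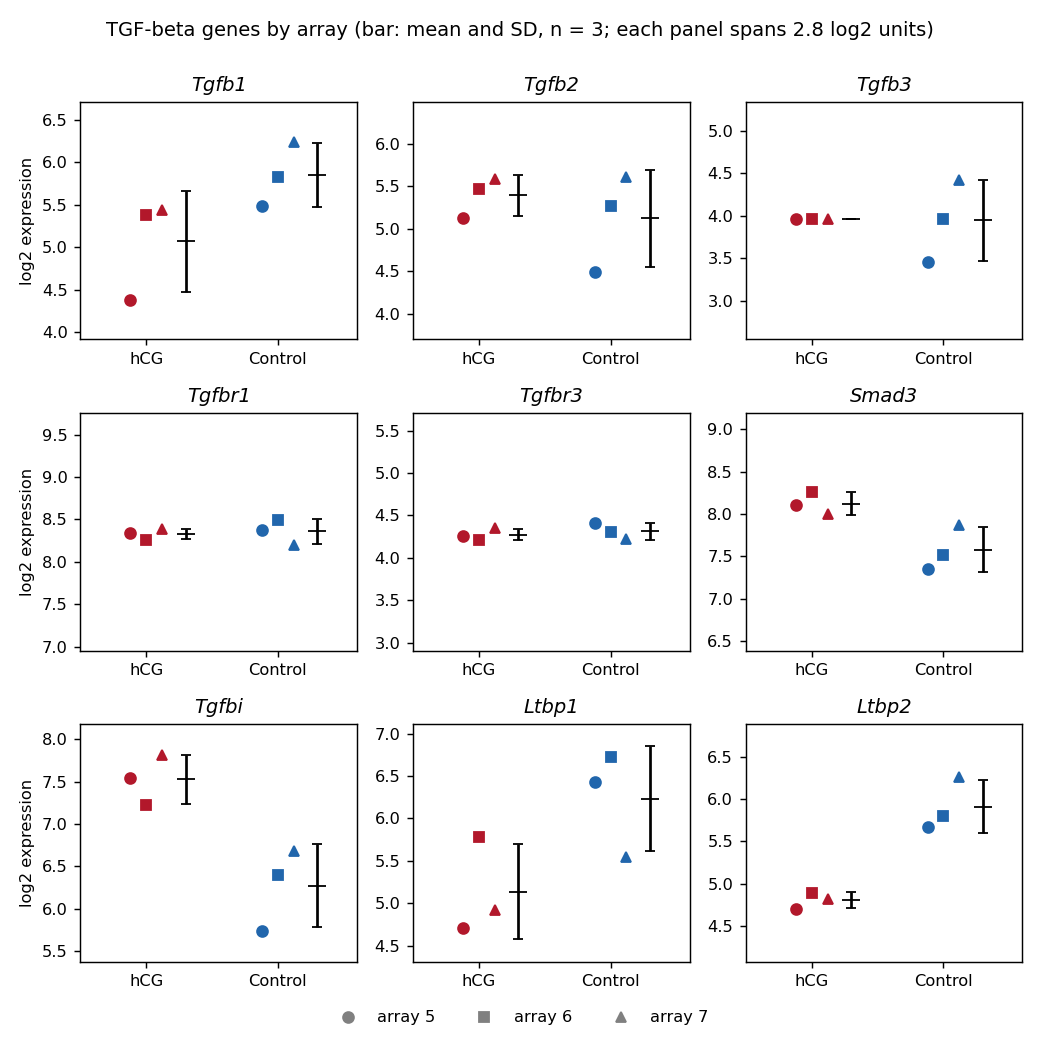
Log2 expression of the 9 measured genes on each hCG array (red) and Control array (blue), with the mean and SD (n = 3 each) beside the points and the same span on every vertical axis. The hCG values of Ltbp2, 4.70 to 4.90, lie below all Control values, those of Tgfbi, 7.22 to 7.81, lie above them, and the 3 hCG values of Tgfb3 coincide at 3.96.

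Ltbp2, which encodes a fibrillin-associated protein of elastic microfibrils, had values of 4.70, 4.90 and 4.82 on hCG arrays 5, 6 and 7, against 5.67, 5.80 and 6.26 on Control arrays 5, 6 and 7. The hCG arrays spanned 0.19 log2 units, and the highest of them was 0.77 below the lowest Control array. Means were 4.81 ± 0.10 in hCG spheres and 5.91 ± 0.31 in Control spheres (SD, n = 3 each), a log2 change of -1.10 (SE 0.16, 95% interval -1.48 to -0.72, limma adjusted p = 0.0368). The fall was larger than the spread within either group. Of the 10424 genes, 125, Ltbp2 included, had a fall at least as large. The change lay between -1.22 and -0.93 with each array left out in turn. Its call held without hCG 6 (limma adjusted p = 0.0423) and without Control 7 (limma adjusted p = 0.0151). It was lost without Control 5 (0.0639), Control 6 (0.117), hCG 5 (0.118) or hCG 7 (0.179; limma adjusted p in each case).

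Ltbp1, whose product ties latent TGF-beta to the matrix, had values of 4.71, 5.78 and 4.93 on hCG arrays, against 6.43, 6.73 and 5.55 on Control arrays. hCG 6 lay above Control 7, so the groups overlapped through these arrays. The mean change of -1.10 (SE 0.37, 95% interval -1.98 to -0.21, limma adjusted p = 0.146) was as large as that of Ltbp2, with a standard error more than double that of Ltbp2. Spread within groups was 0.56 (SD) in hCG spheres and 0.61 in Control spheres. With 1 array left out the change lay between -1.44 and -0.85, and adjusted p between 0.0607 and 0.385 (limma). Whether the 2 genes changed by different amounts was tested on their difference within each array, which was -0.33 ± 0.48 in hCG spheres and -0.32 ± 0.90 in Control spheres (exact two-sided permutation p = 1, n = 3 each). Their balance varied most between Control arrays, at 0.71 on Control 7 against -0.76 and -0.93 on the other two.

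The promoters of Ltbp2, Ltbp1 and Tgfbi are shown because these genes had the largest changes of the set, the first pair lower and Tgfbi higher. They are RefSeq sequences of the rat assembly GRCr8, 300 bases each, from upstream of the annotated start to just past it, read 5′ to 3′ on the gene's strand, and the arrays themselves carry no promoter measurement. Ltbp2 lies at chr6:110257249-110257548, Ltbp1 at chr6:26177252-26177551 and Tgfbi at chr17:7990064-7990363, all on the minus strand. Capitals mark matches to the letters searched on both strands.
Ltbp2: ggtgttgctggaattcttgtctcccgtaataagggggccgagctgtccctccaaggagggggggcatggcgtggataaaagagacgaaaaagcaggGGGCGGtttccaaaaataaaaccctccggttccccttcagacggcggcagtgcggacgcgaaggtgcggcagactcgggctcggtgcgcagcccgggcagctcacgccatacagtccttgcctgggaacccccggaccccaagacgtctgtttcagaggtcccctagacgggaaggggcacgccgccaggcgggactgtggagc
Ltbp1: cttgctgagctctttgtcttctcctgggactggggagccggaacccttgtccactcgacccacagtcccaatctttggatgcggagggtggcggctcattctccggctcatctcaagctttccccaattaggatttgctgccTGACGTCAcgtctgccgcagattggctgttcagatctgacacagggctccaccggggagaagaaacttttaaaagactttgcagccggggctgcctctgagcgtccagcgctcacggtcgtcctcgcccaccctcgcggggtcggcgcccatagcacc
Tgfbi: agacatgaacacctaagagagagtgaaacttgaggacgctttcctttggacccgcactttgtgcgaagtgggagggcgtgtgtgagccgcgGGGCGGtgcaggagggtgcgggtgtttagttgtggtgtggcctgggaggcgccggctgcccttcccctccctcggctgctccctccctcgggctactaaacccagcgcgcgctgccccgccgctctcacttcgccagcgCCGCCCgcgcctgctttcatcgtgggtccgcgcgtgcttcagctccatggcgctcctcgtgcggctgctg
The capitals are GGGCGG, the Sp1 GC box, in Ltbp2 (first base at -154 from the start) and Tgfbi (at -159 and, on the other strand, at -20), and TGACGTCA, the cAMP response element, in Ltbp1 (at -108). GGGCGG was held by 5 of the 9 members' promoters and by 34.9% of 27457 rat promoters of this length, and TGACGTCA by 1 of 9 and by 1.91%. The SMAD palindrome GTCTAGAC (0.215% of promoters), the CAGA box AGCCAGACA (0.386%), the AP-1 element TGACTCA (4.53%) and the TATA box TATAAA (14.3%) were held by 0 of the 9, and the E-box CACGTG (6.65%) by 1, that of Tgfb2. No searched motif overlapped another in the promoters shown.

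Among the ligands, Tgfb1, which encodes the most widely made isoform, had values of 4.38, 5.38 and 5.44 on hCG arrays, against 5.49, 5.83 and 6.25 on Control arrays. The groups did not overlap, but hCG 7 and Control 5 were only 0.04 apart. Means were 5.07 ± 0.60 in hCG spheres and 5.85 ± 0.38 in Control spheres (SD, n = 3 each), a change of -0.78 (SE 0.32, 95% interval -1.54 to -0.03) that did not pass (limma adjusted p = 0.195). Its size rested in part on hCG 5: without that array the change was -0.44, and with any other array left out it lay between -0.97 and -0.59.

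Tgfb2, an isoform that needs betaglycan for efficient receptor binding, had values of 5.13, 5.47 and 5.59 on hCG arrays, against 4.50, 5.27 and 5.61 on Control arrays. All 3 hCG values lay inside the Control range. The change was 0.27 (SE 0.28, 95% interval -0.40 to 0.94, limma adjusted p = 0.603). It turned to -0.05 without Control 5, the lowest array. A second Tgfb2 probe set gave 3.83, 3.72 and 3.96 on hCG arrays and 3.72, 4.00 and 3.91 on Control arrays, a change of -0.04 (SE 0.11).

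Tgfb3, which in the mouse mammary gland is known as the isoform induced by milk stasis, was the dimmest member, with a mean of 3.95 that lay above 17.7% of the genes tested. It was listed at 3.96 on all 3 hCG arrays, against 3.46, 3.96 and 4.42 on Control arrays. The deposited value was identical on hCG 5, hCG 6, hCG 7 and Control 6, and 26 probe sets were listed at that value on hCG 5. The SD of 0 in hCG spheres therefore does not measure replicate error. Such repeats were rare: 19 of the 18625 tested probe sets had 1 value on at least 4 of 6 arrays. The change was 0.01 (SE 0.22, 95% interval -0.51 to 0.54, limma adjusted p = 0.977), and it lay between -0.23 and 0.25 with each array left out in turn.

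**Figure D2:**
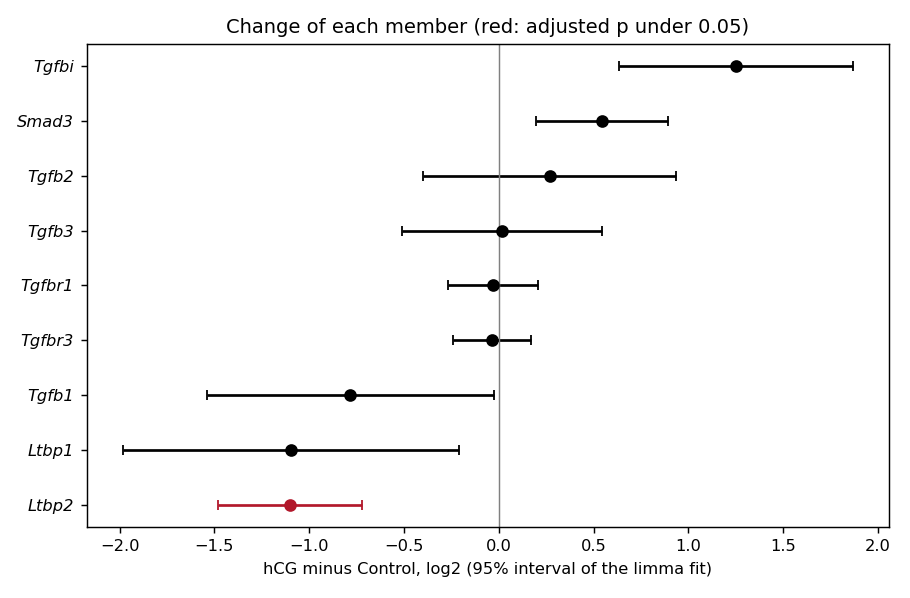
Change of each measured gene, hCG minus Control in log2 units, with the 95% interval of the limma fit (n = 3 arrays per group); red marks an adjusted p under 0.05. The interval of Ltbp2 runs from -1.48 to -0.72, those of Ltbp1, Tgfb1, Smad3 and Tgfbi also lie to 1 side of 0 without passing the adjustment, and the other 4 include 0.

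The balance between isoforms was compared within each array, which removes any effect shared by all genes of an array. Because probe sets differ in brightness, only the shift of such a difference between groups can be read, not its level. The Tgfb2 minus Tgfb1 difference was 0.75, 0.08 and 0.15 on hCG arrays, against -0.99, -0.56 and -0.63 on Control arrays. The groups lay apart, with a shift of 1.05 between means of 0.33 ± 0.37 in hCG spheres and -0.73 ± 0.23 in Control spheres. In a design of 3 against 3 this gives the smallest p possible, 0.1 by exact two-sided permutation, and 0.25 after adjustment over the 5 pairs compared. The shift kept its direction with each array left out, from 0.84 to 1.17, and was 0.90 with both Tgfb2 probe sets averaged. It combines the Tgfb1 change of -0.78 with the Tgfb2 change of 0.27, so it mostly repeats the change of Tgfb1.

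Tgfb3 minus Tgfb1 was -0.42, -1.42 and -1.48 on hCG arrays, against -2.03, -1.87 and -1.83 on Control arrays, a shift of 0.80 (exact two-sided permutation p = 0.1, adjusted 0.25). Since Tgfb3 was listed at 1 value on 4 arrays, this difference mostly follows Tgfb1 there, and the shift was 0.45 without hCG 5. Tgfb3 minus Tgfb2 averaged -1.43 ± 0.24 in hCG spheres and -1.18 ± 0.14 in Control spheres, with overlapping groups (exact two-sided permutation p = 0.3, adjusted 0.5). No pair of the 5 passed a threshold that this design could not have reached.

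**Figure D3:**
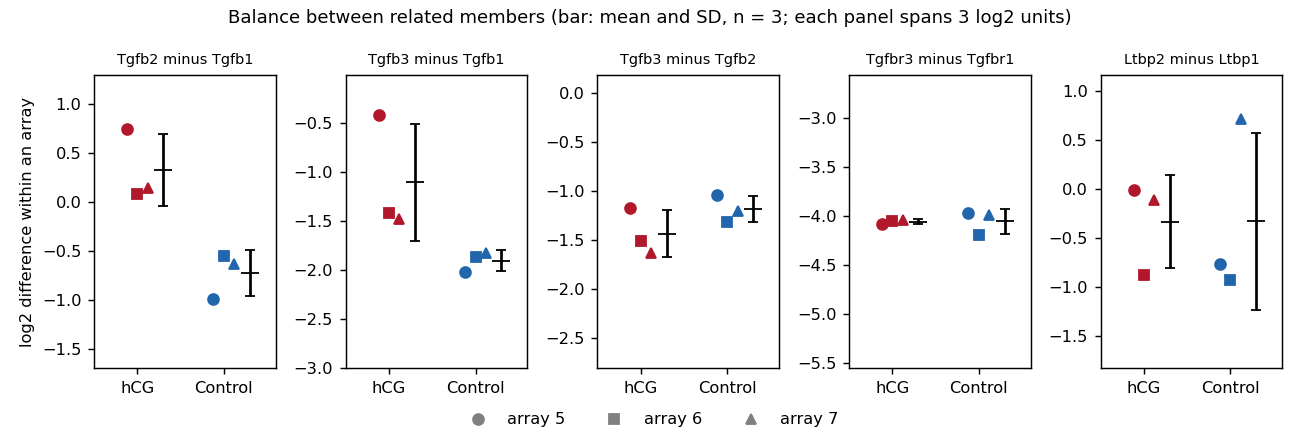
Difference between 2 related genes within each array, in log2 units, on hCG arrays (red) and Control arrays (blue), with the mean and SD (n = 3 each) beside the points. The hCG and Control points of Tgfb2 minus Tgfb1 lie apart, by 1.05 between means, whereas those of Tgfbr3 minus Tgfbr1 differ by -0.01.

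Of the receptors, Tgfbr1, the type I kinase that phosphorylates the SMADs, had values of 8.34, 8.26 and 8.39 on hCG arrays, against 8.38, 8.50 and 8.20 on Control arrays. The groups overlapped fully, at a change of -0.03 (SE 0.10, 95% interval -0.27 to 0.21, limma adjusted p = 0.881). Tgfbr1 was also the member highest in the ranking of mean signal, above 88.8% of the genes tested, and its second probe set, at 1.82 over all arrays, lay under the filter.

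Tgfbr3 had values of 4.26, 4.21 and 4.35 on hCG arrays, against 4.41, 4.30 and 4.22 on Control arrays. Its change was -0.04 (SE 0.09, 95% interval -0.24 to 0.17, limma adjusted p = 0.832), and a second probe set gave -0.07 (SE 0.17). The difference Tgfbr3 minus Tgfbr1 was -4.05 ± 0.02 in hCG spheres and -4.05 ± 0.13 in Control spheres (exact two-sided permutation p = 1). Of these intervals, those of the brightest probe sets reach 0.27 log2 units in size, while that of the second Tgfbr3 probe set runs from -0.47 to 0.32.

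Smad3, the receptor-activated transcription factor, had values of 8.10, 8.26 and 8.0 on hCG arrays, against 7.35, 7.52 and 7.87 on Control arrays. The groups did not overlap, Control 7 being 0.14 below hCG 7. Means were 8.12 ± 0.13 in hCG spheres and 7.58 ± 0.26 in Control spheres (SD, n = 3 each). The change of 0.54 (SE 0.15, 95% interval 0.19 to 0.89) did not pass (limma adjusted p = 0.0984). Without Control 7 it was 0.69 and passed (limma adjusted p = 0.0371). A second Smad3 probe set, with a mean of 1.96, lay under the filter and read -0.08 (SE 0.10).

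Tgfbi, which encodes a secreted adhesion protein of the matrix first found as a gene induced by TGF-beta in human cells, had values of 7.54, 7.22 and 7.81 on hCG arrays, against 5.74, 6.40 and 6.68 on Control arrays. The lowest hCG array, hCG 6, was 0.54 above the highest Control array, Control 7. Means were 7.53 ± 0.29 in hCG spheres and 6.27 ± 0.49 in Control spheres (SD, n = 3 each). At a change of 1.25 (SE 0.26, 95% interval 0.63 to 1.87) it missed the threshold (limma adjusted p = 0.0591). Of the 10424 genes, 46, Tgfbi included, had a rise at least as large, and Tgfbi passed without Control 7 (1.46, limma adjusted p = 0.0414). With each array left out the change lay between 0.98 and 1.46.

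The genes whose arrays followed Ltbp2 most closely, by the mean absolute difference of centred values over 6 arrays, were the chemokine gene Ccl22 (0.07 log2 units), the cytokine gene Il1a (0.11) and the class II histocompatibility gene RT1-Db1 (0.13). Of these Il1a was called, at a change of -1.06 (SE 0.17, limma adjusted p = 0.0382), whereas Ccl22 and RT1-Db1 had changes of -0.996 and -1.13 and missed the threshold (limma adjusted p = 0.0559, then 0.0573). For Tgfbi they were the exchange factor gene Mcf2l (0.11) and the cell division genes Mis18a (0.12) and Ect2 (0.15), with changes of 1.35, 1.12 and 1.07 and 0 of 3 called (limma adjusted p from 0.0626 to 0.0778). With 6 arrays in 2 groups, a close pattern mostly repeats the group difference. On hCG 5, RT1-Db1 was listed at 3.96057, the repeated value that Tgfb3 also had there.

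Of 24 other genes that hold, free or activate the ligand, 22 had a probe set and 20 were tested. Of the 20, 1 was called higher and 0 were called lower, against 1.01% and 0.815% of all genes. The median change was -0.09. An unadjusted limma p under 0.05 was found for 8, against 2510 of all 10424 genes. The groups did not overlap in 2 with higher and 6 with lower values, against 19.3% and 12.3% of all genes. The called gene was Nrros, which encodes a membrane protein that holds latent TGF-beta on myeloid cells, with values of 5.31, 5.41 and 5.36 on hCG arrays, against 3.43, 4.23 and 4.22 on Control arrays. All hCG values of Nrros lay more than 1 unit above all Control values (change 1.40, SE 0.21, limma adjusted p = 0.0382).

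Lrrc32, the related anchor known as GARP on regulatory T cells and platelets, did not pass, with 5.79, 6.54 and 6.15 on hCG arrays and 6.61, 7.42 and 7.22 on Control arrays (change -0.93, SE 0.26, limma adjusted p = 0.106). Furin, the protease that cuts the ligand precursor, had values of 5.27, 6.23 and 5.64 on hCG arrays and 6.90, 6.87 and 7.10 on Control arrays. Its change of -1.25 (SE 0.23) just missed the threshold (limma adjusted p = 0.0512). The gelatinase gene Mmp2, whose product can release active ligand, differed by -0.46 (SE 0.09, limma adjusted p = 0.0529), also with no overlap. The other latent binding proteins Ltbp3 and Ltbp4 had mean differences of -0.20 and 0.24, with overlapping groups (limma adjusted p = 0.334 and 0.474).

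Among other receptors and SMAD machinery, 25 of 27 genes were tested, with a median change of 0.05. In either direction 0 were called, against 1.01% of all genes called higher and 0.815% lower. An unadjusted limma p under 0.05 was found for 6, against 2510 of all 10424 genes. The groups did not overlap in 6 with higher and 6 with lower values, against 19.3% and 12.3% of all genes. The inhibitory SMAD gene Smad7, itself a target of the pathway, had 4.45, 5.07 and 4.84 on hCG arrays, against 5.23, 5.81 and 5.54 on Control arrays (change -0.74, SE 0.20, limma adjusted p = 0.0987). The corepressor gene Tgif1 differed by -0.39 (SE 0.11, limma adjusted p = 0.106). Fkbp1a, whose product binds TGFBR1 and prevents its leaky activity, and Smad4, the partner of SMAD3, differed by 0.30 and 0.26 (limma adjusted p = 0.136 for each). Groups did not overlap in these 4 genes.

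**Figure D4:**
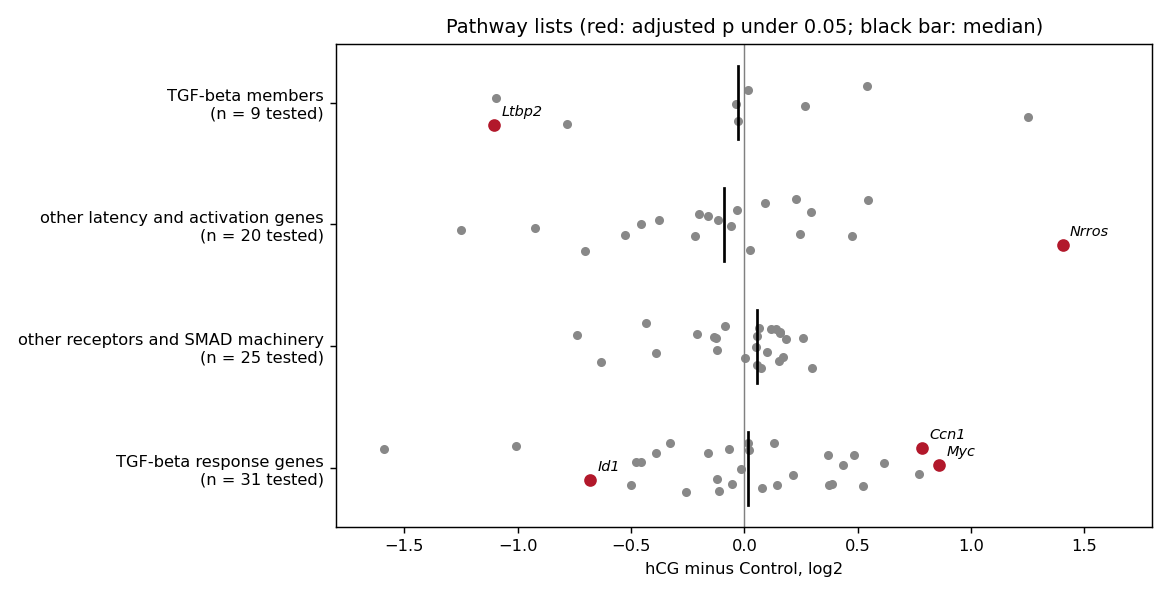
Change of each tested gene, hCG minus Control in log2 units, in the TGF-beta members and 3 lists of other pathway genes; red points passed an adjusted p under 0.05 and black bars are medians. Medians lie between -0.09 and 0.05, and the red points are Ltbp2, Nrros, Id1, Ccn1 and Myc.

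Of 35 genes known to respond to TGF-beta in cultured cells, 31 were tested, with a median change of 0.01. Called higher were 2 and called lower 1, against 1.01% and 0.815% of all genes. Changes lay above 0 in 16 and below 0 in 15, against 5818 and 4606 of the 10424 genes. Of the 31, 14 had an unadjusted limma p under 0.05, against 2510 of all 10424 genes. The groups did not overlap in 9 with higher and 4 with lower values, against 19.3% and 12.3% of all genes. Ccn1, a matrix signalling protein gene, rose (7.44, 7.41 and 7.51 on hCG arrays, against 6.81, 6.57 and 6.63 on Control arrays), with a change of 0.78 (SE 0.09, limma adjusted p = 0.0307). Myc, which TGF-beta represses in many epithelial cells, rose by 0.86 (SE 0.13, limma adjusted p = 0.0368). Id1, an inhibitor of differentiation that TGF-beta can raise or lower depending on the cell, fell to 5.84, 6.06 and 5.92 on hCG arrays, against 6.64, 6.61 and 6.60 on Control arrays (change -0.68, SE 0.09, limma adjusted p = 0.0341). The tropomyosin gene Tpm1 differed by 0.77 (SE 0.16, limma adjusted p = 0.0580). The classical response gene Ccn2 had a change of -0.12 (SE 0.31), and the collagen genes Col1a2 and Col3a1 differed by 0.01 and 0.37 (limma adjusted p = 0.934 and 0.0617).

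Markers of several cell types and the spiked poly-A transcripts moved with the groups, and their part in the results above was not tested. In RNA from whole spheres, fewer cells of a type and less RNA per cell cannot be told apart. Over all genes tested, 5818 of 10424 changes lay above 0 and 4606 below, and 1.01% of genes were called higher and 0.815% lower. Endothelial marker levels, relative to the Control mean, ran from 1.18 to 1.26 on hCG arrays and from -0.34 to 0.50 on Control arrays, and 9 of 9 tested markers lay above 0, with 4 called (Sox17, Esam, Emcn and Erg). The brightest were Emcn (change 1.89) and Egfl7 (0.64), while Tie1 and Vwf were under the filter. Fibroblast markers ran from 0.20 to 0.44 on hCG arrays and from -0.12 to 0.16 on Control arrays, with 9 of 12 above 0, Lum called higher and Dpt called lower. Their brightest genes, Dcn and Col3a1, averaged 12.42 and 12.40 on hCG arrays and 12.48 and 12.02 on Control arrays. Pericyte and smooth muscle markers ran from 0.42 to 0.55 on hCG arrays and from -0.14 to 0.17 on Control arrays, with 6 of 8 above 0 and Rgs5 called higher, the brightest being Pdgfrb (change 0.18) and Acta2 (0.38).

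Basal and myoepithelial markers ran from 0.53 to 0.75 on hCG arrays and from -0.64 to 0.51 on Control arrays. All 9 of 9 tested markers lay above 0, against 5818 of the 10424 genes, and 0 were called. The brightest were Krt14 (change 0.92) and Acta2. Groups lay apart in 3 of the 9 (Myh11, Itga6 and Acta2), against 19.3% of all genes in this direction. In Acta2 they were only 0.04 apart, and its value was the same, 5.8103, on Control 5 and Control 6. Myh11 and Acta2 are also in the pericyte and smooth muscle list. Luminal levels overlapped, at -0.71 to -0.37 on hCG arrays and -0.74 to 0.62 on Control arrays. Of the 10 tested, 9 lay below 0, against 4606 of the 10424 genes, and Cd24 was called lower. The brightest were Cd24 and Epcam (change -0.27). Cd24 and Epcam averaged 6.80 and 7.04 on hCG arrays and 8.22 and 7.32 on Control arrays. Probe sets differ in brightness, so these levels do not give the share of epithelial cells beside fibroblasts. Of the epithelial markers, 10 of 14 luminal and 9 of 11 basal genes passed the filter, while Esr1, Pgr, Foxa1 and Elf5 were under it. Macrophage markers, relevant to Nrros, had 3 of 10 genes over the filter (Cd68, Lyz2 and Adgre1, with changes of -1.33, 0.90 and 0.65 and 0 called), and their levels overlapped, at -0.21 to 0.31 on hCG arrays and -0.41 to 0.69 on Control arrays. The other 7 were under it: Mrc1, Csf1r, Itgam, Cd163, C1qa, C1qb and C1qc. Of these Mrc1 had 2.68, 3.49 and 3.92 on hCG arrays, against 2.16, 1.98 and 1.54 on Control arrays, with no overlap (change 1.47, SE 0.31, limma adjusted p = 0.0734 with no filter). C1qa did not overlap either, at a change of 0.59 (SE 0.25, limma adjusted p = 0.290 with no filter). In the other direction, Cd68, which passed the filter, also had no overlap. It had 6.06, 6.75 and 6.19 on hCG arrays, against 8.41, 7.25 and 7.31 on Control arrays. The part of these markers in the change of Nrros was not tested. Bacterial poly-A transcripts, added to each RNA before labelling, averaged 4.51 ± 0.34 on hCG arrays and 5.56 ± 0.14 on Control arrays (SD, n = 3 each, exact two-sided permutation p = 0.1, the smallest possible). The hybridisation control transcripts overlapped, at 7.40 ± 0.13 on hCG arrays and 7.61 ± 0.15 on Control arrays (exact two-sided permutation p = 0.2).

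**Figure D5:**
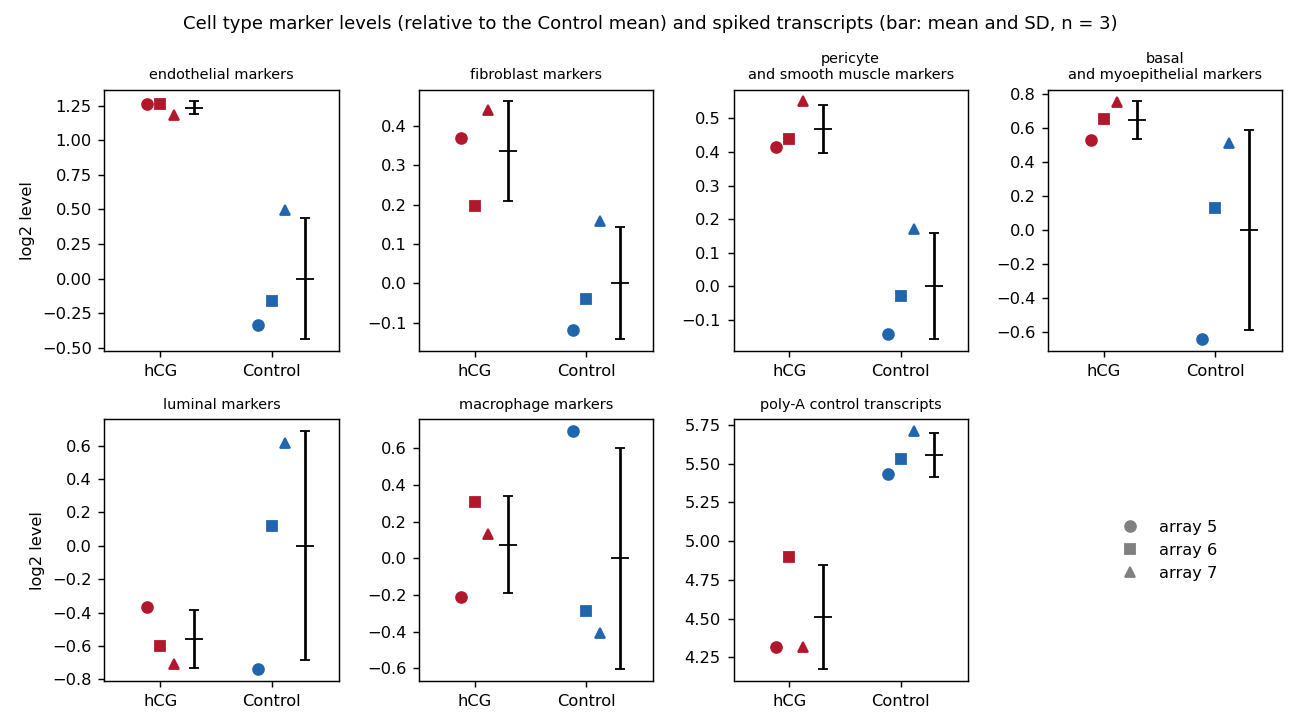
Mean log2 level per array of the tested markers of 6 cell types, relative to the Control mean, and of spiked bacterial poly-A transcripts, on hCG arrays (red) and Control arrays (blue), with the mean and SD (n = 3 each); vertical axes differ between panels. Endothelial, fibroblast, pericyte and basal marker levels are higher on all hCG arrays than on any Control array, luminal and macrophage levels overlap, and the poly-A level is lower on all hCG arrays.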

How the data were processed

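The table used was deposited by the authors and holds log2 expression of 31099 probe sets on 6 arrays. Per the labels' protocols, RNA was labelled with a two-cycle 3' amplification. RMA, MAS5 and limma are named in the submitters' processing notes, without versions or roles. The log base and normalization were read from the values (0.74 to 13.1, array medians 3.44 to 3.48); normalization between arrays hides a change shared by most genes.

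Control probe sets (57) and the dimmest 40% of the others (mean under 2.67) were left out, leaving 18625. Annotation gave 1 gene to 20826 probe sets, and 20758 symbols were updated by Entrez number to RefSeq names of GRCr8. The brightest probe set per gene gave 10424 genes. hCG was tested against Control with limma 3.58.1 in R 4.3.3 (lmFit, eBayes, no block; 4 residual degrees of freedom), two-sided, with Benjamini-Hochberg adjustment over these genes. On simulated data with independent normal noise the fit recovered 181 of 200 probe sets shifted by 1, with 12 wrong calls. The simulation held no effect shared by the genes of an array, so these counts need not hold for the real arrays.

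Titles gave the groups. No source says whether arrays are different animals, so p-values reflect the spread among arrays, which may be partly technical, and their number limits the precision. Members and lists were chosen with earlier results of these data known. The text names all members, the called genes and the 4 of smallest p in each other pathway list, the 3 genes most like each of the 2 members of smallest p, and the called and 2 brightest cell type markers. Col1a2, Col3a1, Ccn2, Ltbp3, Ltbp4, Adgre1 and markers under the filter were added once their values were seen. The alternatives tried were other filters (none, or 60%), quantile normalization, median centring, a replicate block, a variance trend, averaged probe sets, each array left out and, added after seeing the data, adjustment over probe sets.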

Additional observations from a re-analysis of the deposited data

How the results depend on the processing

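Members' changes kept their direction in 110 of 115 combinations of gene and alternative; the 5 reversals came with an array left out, in Tgfb2, Tgfb3, Tgfbr1 and Tgfbr3. With each array left out in turn, changes ran from -0.048 to 0.51 for Tgfb2, from -0.23 to 0.25 for Tgfb3, from -0.11 to 0.039 for Tgfbr1 and from -0.082 to 0.013 for Tgfbr3. Differences between genes ran from -0.079 to 0.034 for Tgfbr3 minus Tgfbr1 and from -0.31 to 0.51 for Ltbp2 minus Ltbp1. Members called numbered 0 to 3 with an array left out (Smad3, Tgfbi and Ltbp2 without Control 7). Under every other alternative 1 was called, Ltbp2 each time. Control 7 also had the highest 3' minus 5' signal, an RNA quality measure, of the 6 arrays. It was 0.67 for Gapdh, against 0.05 to 0.22 on the others, and 2.18 for Actb, against 1.46 to 1.75. The part of RNA quality in these calls was not tested. Over all genes 190 were called by limma, 0 to 584 with an array left out, 306 with a variance trend and 118 with the array number as a replicate block. That block gave adjusted p = 0.0466 for Ltbp2, 0.0824 for Tgfb1 and 0.0909 for Ltbp1 (limma). It narrowed the SE of Tgfb1 from 0.32 to 0.15 and that of Ltbp1 from 0.37 to 0.22. No label links arrays of 1 number beyond the number itself. Correlations of their deviations were -0.09, 0.13 and 0.00 for arrays 5, 6 and 7, against -0.19 to 0.18 for arrays of different numbers. With 3 arrays per group these values cannot settle whether arrays of 1 number were paired. Tgfb3 and Tgfbr3 could not be tested with the dimmest 60% left out. The cause of these shifts was not tested.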

Other observations

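Some further genes of the pathway lists, chosen after their values were seen, are given as single values, with 0 called unless stated. Skil, a SMAD corepressor gene, had values of 8.27, 8.82 and 8.67 on hCG arrays and 8.89, 9.24 and 8.94 on Control arrays (change -0.43, SE 0.17, limma adjusted p = 0.175). Pmepa1, whose product sequesters SMADs, had values of 9.84, 10.67 and 10.43 on hCG arrays and 10.53, 11.13 and 11.17 on Control arrays, with overlapping groups (change -0.63, SE 0.26, limma adjusted p = 0.194). Several other inhibitors of the pathway in the same list lay nearer to 0. Changes were 0.05 for Bambi, 0.05 for Tgif2, 0.07 for Nedd4l, 0.05 for Ppm1a and -0.12 for Smad6, each with overlapping groups. Smurf1 and Smurf2 had changes of -0.14 and -0.12, and in both the groups did not overlap.

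Id2 and Id3, relatives of Id1, had changes of 0.49 (SE 0.13, limma adjusted p = 0.1001) and -1.01 (SE 0.36, limma adjusted p = 0.155) in hCG spheres, while Id1 fell. Il11, a cytokine gene that responds to TGF-beta, had a change of -1.59 (SE 0.63) with overlapping groups (limma adjusted p = 0.185). It was listed at the same value, 8.4475, on Control 5 and Control 6.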
